A study of Homo sapiens with 29 samples.

Results

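The genes described here are 37 components of homologous recombination and of the Fanconi anemia pathway, taken from a list of gene symbols. All 37 are present in the table of 23710 gene symbols measured across the knockdown and compound-treated libraries. By role, 8 act in break sensing and end resection, 4 are checkpoint kinases, 4 form the BRCA1 and BRCA2 assembly, 9 act in strand exchange, 9 belong to the Fanconi core or its partner enzyme, and 3 act downstream of that core. They were read against the whole table. Their levels are given in FPKM (fragments per kilobase of transcript, scaled between libraries as deposited) in the knockdown libraries.

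Homologous recombination repairs a broken chromosome by copying the sister chromatid. Broken ends are recognised and trimmed to single strands, which then invade the intact copy with the help of BRCA2 and of strand exchange factors such as XRCC2 and XRCC3. The Fanconi anemia pathway detects crosslinks between the DNA strands. Its core complex, with the conjugating enzyme UBE2T, attaches ubiquitin to FANCD2 and FANCI, and repair then passes to nucleases and to homologous recombination. Both systems work mainly in S and G2 phase, and many of their genes are known to be transcribed with the cell cycle.

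The study depleted the antioxidant transcription factor NRF2 (gene NFE2L2), the orphan nuclear receptor NR0B1 or the splicing and transcription co-factor SNW1 in human lung cancer lines, with a short hairpin RNA (sh) against GFP as the control. In H2122 cells, polyadenylated RNA was taken after 24 h from shGFP and shNRF2 cells. In H460 cells it was taken after 72 h from shGFP, shNRF2, shNR0B1 and shSNW1 cells. In a separate experiment, H460 cells without a hairpin received 30 µM of BPK29, 30 µM of BPK9 or the solvent DMSO for 12 h. Each of the 9 groups had 3 libraries. The labels give neither the hairpin sequences nor how many hairpins were used per target, and line and time of knockdown cannot be told apart in any comparison between H2122 and H460. The labels do not say that replicates came from separate cultures, so p-values rest on variation between libraries alone, and that may be technical.

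The knockdown libraries held 16709893 to 24613434 recovered reads, and the compound libraries 18761651 to 24408213. The targeted genes fell in the libraries labelled with their hairpins: NFE2L2 from 58.5 to 26.6 FPKM in H2122 and from 43.3 to 26.8 FPKM in H460, NR0B1 from 47.6 to 18.2 FPKM, and SNW1 from 51.2 to 32.2 FPKM (means, n = 3). NR0B1 itself was also lower with shNRF2, at 0.966 FPKM in H2122 and 9.06 FPKM in H460. The third H460 shGFP library stood apart from its replicates (chi-square per gene of 5.80 and 4.53 against them, 1.24 to 2.48 in all other replicate pairs), so the counts of members called in H460 are given below also without it. KRT8, KRT18, KRT7, KRT19 and EPCAM, the epithelial markers besides CDH1, summed with CDH1 to 4425 to 4485 FPKM in H2122 shGFP and 6505 to 6795 FPKM in H2122 shNRF2 libraries. In H460 the sum was 1978 to 2256 FPKM with shGFP, 2060 to 2173 FPKM with shNRF2, 1203 to 1229 FPKM with shNR0B1 and 1888 to 1947 FPKM with shSNW1, with CDH1 under 0.05 FPKM. PTPRC, CD3E and MS4A1, markers of blood cells, were under 0.05 FPKM in every knockdown group, although the 7 immune markers summed to 46.2 to 47.5 FPKM in H2122 shGFP and 105 to 109 FPKM in H2122 shNRF2 libraries, and 28.4 to 38.5 FPKM in H460. The 8 fibroblast and endothelial markers summed to 9.45 to 10.4 FPKM in H2122 shGFP and 14.0 to 14.6 FPKM in H2122 shNRF2 libraries. In H460 they summed to 8.62 to 9.49 FPKM with shGFP, 16.9 to 17.8 FPKM with shNRF2, 17.8 to 18.6 FPKM with shNR0B1 and 6.76 to 7.15 FPKM with shSNW1. In H2122, COL1A2, COL3A1, DCN, PDGFRB and CDH5 were under 0.05 FPKM, and in H460 COL1A2, PECAM1, VWF and CDH5. The part of these 3 lists in the results was not tested. In bulk RNA, fewer cells in a given state and less RNA per cell cannot be told apart.

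In control cells, which carried the shGFP hairpin, the members spanned a wide range of levels. UBE2T was the highest member in both lines, with 63.8, 66.0 and 67.7 FPKM in H2122 and 154, 151 and 143 FPKM in H460. FANCB, a structural subunit of the Fanconi core, was the lowest in H2122 at 0.887, 0.746 and 1.07 FPKM, and RAD54B, a DNA translocase, was the lowest in H460 at 1.56, 1.64 and 1.44 FPKM. The median member was at 6.94 FPKM in H2122 and 7.29 FPKM in H460. Without overlap between libraries, 18 members were higher in H460 and 11 were higher in H2122, against 41.4% and 45.0% of 12087 genes, and 8 overlapped. Without the third H460 shGFP library the counts were 19 and 11. The largest gap was in EXO1, an end-resecting nuclease, which had 101, 98.7 and 91.2 FPKM in H460 and 16.7, 16.2 and 16 FPKM in H2122. CHEK2, a checkpoint kinase, was 3.59-fold higher in H460, FANCB 3.42-fold and RAD52, a strand-annealing protein, 2.59-fold. RAD54B was 1.63-fold and FANCE, a core subunit, 1.48-fold higher in H2122. These ratios describe 2 lines at 2 times and were not tested.

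Because the members share a function rather than a level, their promoters were compared for letters bound by cell cycle and stress regulators. RefSeq promoters (GRCh38.p14, 250 bases before to 50 bases after the transcription start) were matched for 32 members. Both strands were searched for TTTCCCGC or TTTGGCGC (E2F), TTTGAA (the cell cycle homology region, CHR), CCAAT, and TGACNNNGC (the antioxidant response element that NRF2 binds). The E2F letters occurred in 3 members (XRCC2, FANCC and FANCD2, 9.38%) against 2.75% of 27305 genes with a promoter. CCAAT occurred in 15 (46.9%) against 39.7%. The CHR letters occurred in 4 (12.5%) against 18.2% and the antioxidant letters in 2 (RBBP8 and FANCD2, 6.25%) against 16.1%. A match describes letters only, and 13 of the 32 promoters held none of them, including those of EXO1 and RAD51C. The stretches below show FANCD2 and FANCC, which share the E2F letters, UBE2T and XRCC3, which hold CCAAT, and RAD50, which holds none of the letters and rose with shNR0B1 and shSNW1. Capitals mark the matches, read 5′ to 3′ on the gene's strand.
FANCD2 (chr3:10026413-10026442, plus strand, across the start): cgtcagagcggcgtcgggcctgGCGGGAAA
FANCC (chr9:95317710-95317799, minus strand): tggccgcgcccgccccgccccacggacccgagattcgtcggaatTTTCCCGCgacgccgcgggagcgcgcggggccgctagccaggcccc
UBE2T (chr1:202341997-202342096, minus strand): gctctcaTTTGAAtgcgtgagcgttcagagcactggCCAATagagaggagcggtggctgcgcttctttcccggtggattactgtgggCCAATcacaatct
XRCC3 (chr14:103715477-103715571, minus strand): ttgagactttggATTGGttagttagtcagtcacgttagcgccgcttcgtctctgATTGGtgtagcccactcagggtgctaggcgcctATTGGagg
RAD50 (chr5:132556887-132556976, plus strand): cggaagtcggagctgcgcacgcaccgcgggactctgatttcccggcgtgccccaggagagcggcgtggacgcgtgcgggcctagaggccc
FANCD2 and FANCC share the 8 E2F letters, in opposite orientation. Outside the stretches shown, the FANCD2 promoter also holds the antioxidant letters and that of FANCC a CHR match. UBE2T holds 1 CHR match and 2 CCAAT boxes, XRCC3 holds 3 inverted CCAAT boxes in this stretch, and RAD50 holds none of the 4 motifs.

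NRF2 depletion lowered most of these genes in both lines. In H2122, 29 of the 36 members tested fell and 2 rose, where 38.5% of 11710 genes fell and 48.8% rose. In H460, 31 of 37 fell and 3 rose, where 39.0% of 11938 genes fell and 40.9% rose. The median log2 fold change of the members was -0.81 in H2122 and -0.88 in H460, against 0.09 and 0.01 over all genes. Of the members that fell, 28 did so in both lines, which is 28 of 29 in H2122 and 28 of 31 in H460. In the main analysis no member was called in opposite directions, but RAD51D was under other settings given below. Over all genes tested in both lines, 29.0% fell in both, which is 71.7% of those that fell in H2122 and 71.1% of those that fell in H460. Calls throughout are from limma on log2(FPKM + 1) with a Benjamini-Hochberg adjusted p under 0.05, a scale that understates the change of genes at low levels. Without the third H460 shGFP library, 31 members fell and 2 rose in H460. Falls of at least 1.5 fold are counted here and below on the log2(FPKM + 1) scale, not as ratios of mean FPKM. They were called for 20 members in H2122 and 25 in H460, against 19.5% and 14.9% of all genes. Without the same library, 27 members in H460 fell by at least 1.5 fold, and 28 still fell in both lines.

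**Figure D1:**
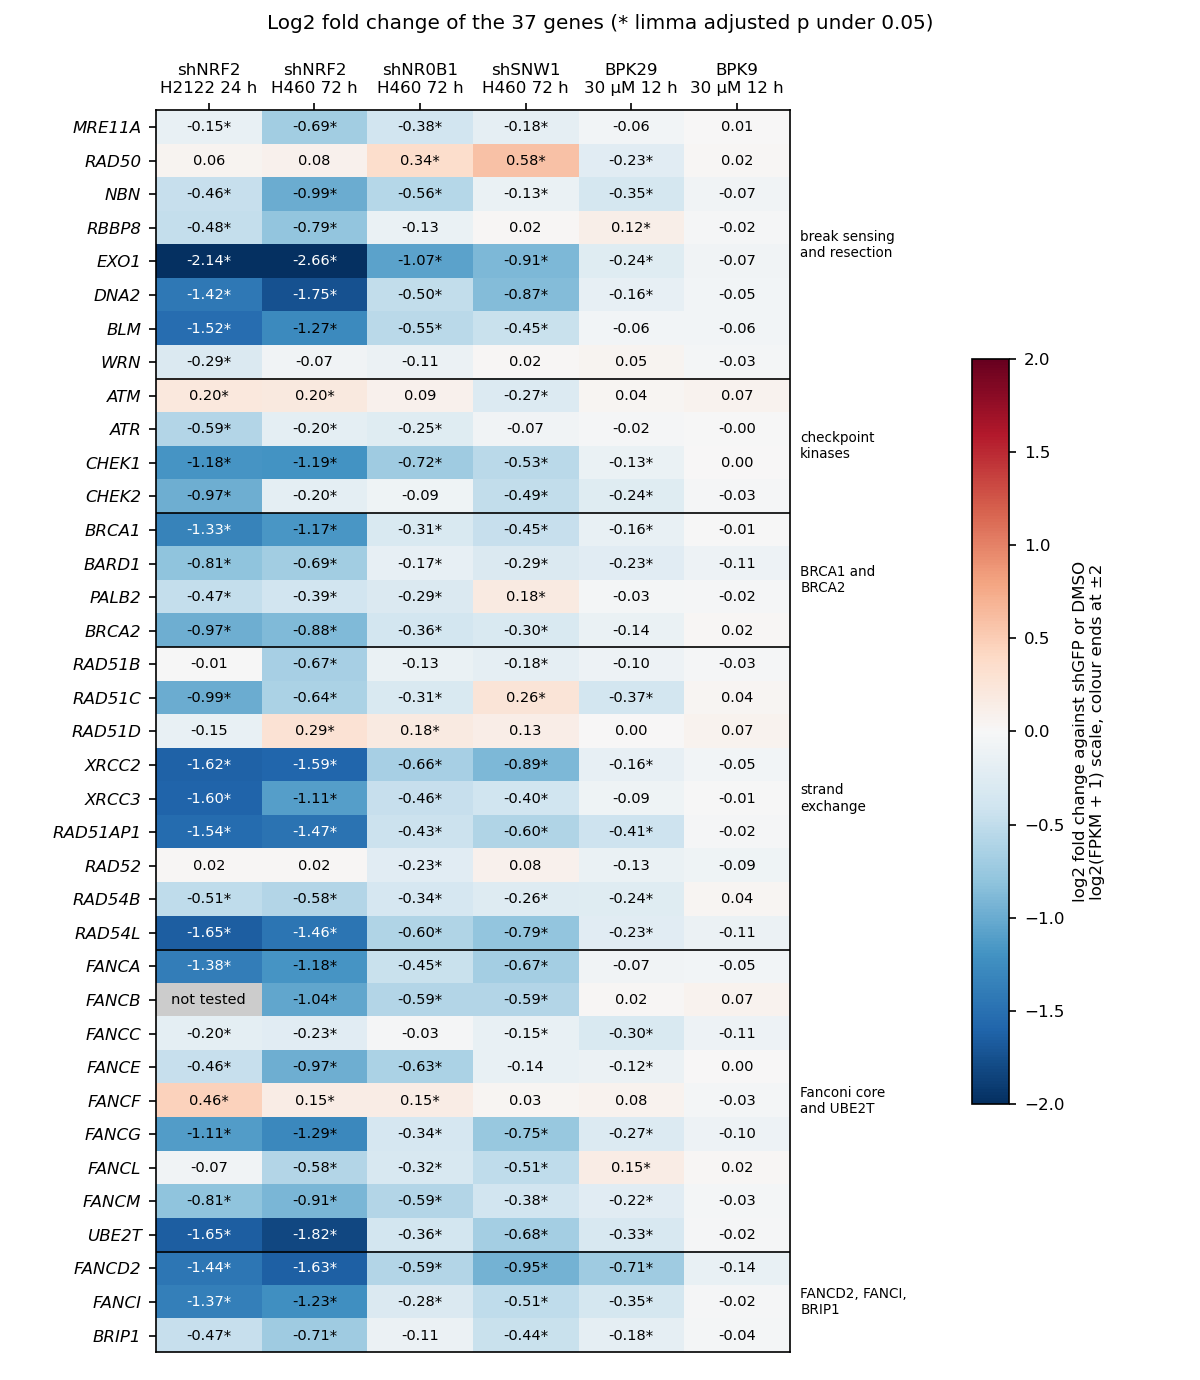
Log2 fold change of each of the 37 genes (rows, grouped by role) in the 4 knockdowns against shGFP and the 2 compounds against DMSO (columns), on the log2(FPKM + 1) scale, with 3 libraries per group. Asterisks mark an adjusted p under 0.05 (limma); EXO1 has the deepest fall in both NRF2 knockdowns (-2.14 and -2.66), and the BPK9 column holds no asterisk.

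Among the genes that sense and trim broken ends, EXO1, DNA2 and BLM of long-range resection had the deepest falls, and RAD50, of the complex that binds the ends, did not pass the test. EXO1 went from 16.7, 16.2 and 16 FPKM to 2.63, 3.21 and 2.98 FPKM in H2122 and from 101, 98.7 and 91.2 FPKM to 14.4, 14.0 and 15.0 FPKM in H460. All treated libraries lay far below all controls. The log2 fold changes were -2.14 (SE 0.06, limma adjusted p = 5.89e-10) and -2.66 (SE 0.05, adjusted p = 6.04e-14), and the ratios of mean FPKM were 5.54-fold and 6.70-fold lower.

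DNA2, the other long-range nuclease, went from 10.2, 9.71 and 9.74 FPKM to 3.08, 3.01 and 3.07 FPKM in H2122, and from 11.2, 11 and 9.55 FPKM to 2.21, 2.67 and 2.44 FPKM in H460. The groups did not overlap in either line, and the log2 fold changes were -1.42 and -1.75. BLM, the helicase that works with DNA2 and dissolves joint molecules, changed by -1.52 and -1.27. NBN fell by 0.46 and 0.99, RBBP8 (CtIP, which starts resection) by 0.48 and 0.79, and MRE11A, the nuclease of the end-binding complex, by 0.15 and 0.69 on the log2 scale. The MRE11A call in H2122 was lost without shNRF2 replicate 1 (adjusted p = 0.0596) or shGFP replicate 3 (adjusted p = 0.0521). RAD50, the structural ATPase of that complex, did not pass the test in either line: it had 14.6, 13.9 and 14.3 FPKM against 14.8, 15.5 and 14.5 FPKM in H2122, with a difference of 0.06 (95% interval -0.02 to 0.14), and 0.08 (-0.04 to 0.20) in H460. WRN, a helicase related to BLM, fell by 0.29 in H2122 and had a difference of -0.07 (-0.19 to 0.05) in H460.

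Of the checkpoint kinases, CHEK1, which restrains entry into mitosis when replication is blocked, fell by 1.18 and 1.19 on the log2 scale. It went from 12.8, 12.3 and 12.2 FPKM to 5.34, 4.85 and 4.66 FPKM in H2122, and from 12.9, 12.5 and 11.5 FPKM to 4.27, 5.17 and 5.07 FPKM in H460. ATR, the kinase upstream of CHEK1, fell by 0.59 and 0.20. ATM, the kinase activated at double-strand breaks, rose: from 2.67, 2.69 and 2.83 FPKM to 3.05, 3.47 and 3.38 FPKM in H2122 (log2 fold change 0.20, limma adjusted p = 0.00671), and from 3.68, 4.03 and 3.19 FPKM to 4.11, 4.42 and 4.41 FPKM in H460 (0.20, adjusted p = 0.0108). The ATM groups did not overlap in either line, but the H460 call was lost without the third shGFP library (adjusted p = 0.0531).

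All 4 members of the BRCA1 and BRCA2 assembly fell in both lines. BRCA1, a ubiquitin ligase subunit that favours resection, went from 10.5, 10.8 and 10.5 FPKM to 3.75, 3.60 and 3.52 FPKM in H2122 and from 9.10, 9.64 and 9.0 FPKM to 3.37, 3.42 and 3.89 FPKM in H460. The log2 fold changes were -1.33 (SE 0.04, limma adjusted p = 1.63e-09) and -1.17 (SE 0.06, adjusted p = 2.96e-10). BARD1, its obligate partner, fell by 0.81 and 0.69, and PALB2, which joins BRCA1 to BRCA2, by 0.47 and 0.39. BRCA2, a central mediator of strand exchange, was a low gene. In both lines all its shNRF2 libraries were under the minimum level of 1 FPKM. It passed that level only through other libraries, which were the controls in H2122. It went from 1.99, 2.13 and 1.92 FPKM to 0.547, 0.491 and 0.573 FPKM there, and from 1.80, 1.86 and 1.55 FPKM to 0.456, 0.470 and 0.534 FPKM in H460. Its log2(FPKM + 1) changes were -0.97 and -0.88, and its mean FPKM was 3.75-fold and 3.57-fold lower.

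Of the strand exchange genes, XRCC2, XRCC3, RAD51AP1 and RAD54L fell by more than 1 log2 unit in both lines, and RAD52 passed the test in neither. XRCC2, a strand exchange mediator, went from 5.88, 5.44 and 5.58 FPKM to 1.03, 1.25 and 1.19 FPKM in H2122 and from 7.04, 7.87 and 6.96 FPKM to 1.49, 1.63 and 2.17 FPKM in H460. RAD51AP1, which stimulates strand invasion, went from 10.1, 9.54 and 9.67 FPKM to 2.44, 2.93 and 2.78 FPKM in H2122 and from 12.0, 12.6 and 10.7 FPKM to 4.08, 3.60 and 3.14 FPKM in H460. In both genes every treated library was below every control library. Their log2 fold changes were -1.62 and -1.59 for XRCC2 and -1.54 and -1.47 for RAD51AP1. RAD54L, a motor protein that drives strand exchange on chromatin, went from 5.79, 5.80 and 6.27 FPKM to 1.25, 0.992 and 1.43 FPKM in H2122 (-1.65) and changed by -1.46 in H460. XRCC3, the partner of RAD51C, went from 18.9, 18.8 and 18.3 FPKM to 5.37, 5.51 and 5.6 FPKM in H2122 (-1.60) and from 15.3, 14.5 and 17 FPKM to 6.6, 6.03 and 7.55 FPKM in H460 (-1.11). RAD51C fell by 0.99 and 0.64 and RAD54B by 0.51 and 0.58. RAD52 differed by 0.02 in each line (95% intervals -0.13 to 0.17 and -0.10 to 0.15).

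In the Fanconi core, UBE2T fell furthest, from 63.8, 66.0 and 67.7 FPKM to 19.5, 19.7 and 21.9 FPKM in H2122 and from 154, 151 and 143 FPKM to 40.3, 40.6 and 43.9 FPKM in H460. Its groups were widely apart, and the log2 fold changes were -1.65 (SE 0.04, limma adjusted p = 6.01e-10) and -1.82 (SE 0.05, adjusted p = 8.46e-13). FANCA and FANCG, which form a subcomplex of the core, fell by 1.38 and 1.11 in H2122 and by 1.18 and 1.29 in H460. FANCM, the translocase that anchors the core on DNA, fell by 0.81 and 0.91. FANCC fell by 0.20 and 0.23. FANCB was not tested in H2122, where fewer than 3 libraries reached 1 FPKM, and fell by 1.04 in H460, with mean FPKM 3.15-fold lower. FANCF, an adaptor subunit, was the core gene that rose: from 4.36, 4.07 and 4.40 FPKM to 6.03, 6.01 and 6.74 FPKM in H2122 (0.46, adjusted p = 2.67e-05) and from 6.28, 5.84 and 6.70 FPKM to 7.13, 6.96 and 7.05 FPKM in H460 (0.15, adjusted p = 0.0144). Its H460 groups were close, and that call was lost without shGFP replicate 2 (adjusted p = 0.0759) or with a common library total (adjusted p = 0.0501).

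The genes downstream of the core all fell. FANCD2 went from 11.1, 10.3 and 10.8 FPKM to 3.09, 3.47 and 3.44 FPKM in H2122 and from 8.76, 8.36 and 8.67 FPKM to 1.96, 1.89 and 2.47 FPKM in H460. The libraries of the 2 groups did not overlap in either line, with log2 fold changes of -1.44 and -1.63. FANCI, its partner in the clamp, went from a mean of 44.8 ± 0.804 to 16.7 ± 0.917 FPKM (SD, n = 3) in H2122 and from 31.1 ± 1.12 to 12.7 ± 0.526 FPKM in H460, changes of -1.37 and -1.23. BRIP1, a helicase that binds BRCA1, fell by 0.47 and 0.71.

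**Figure D2:**
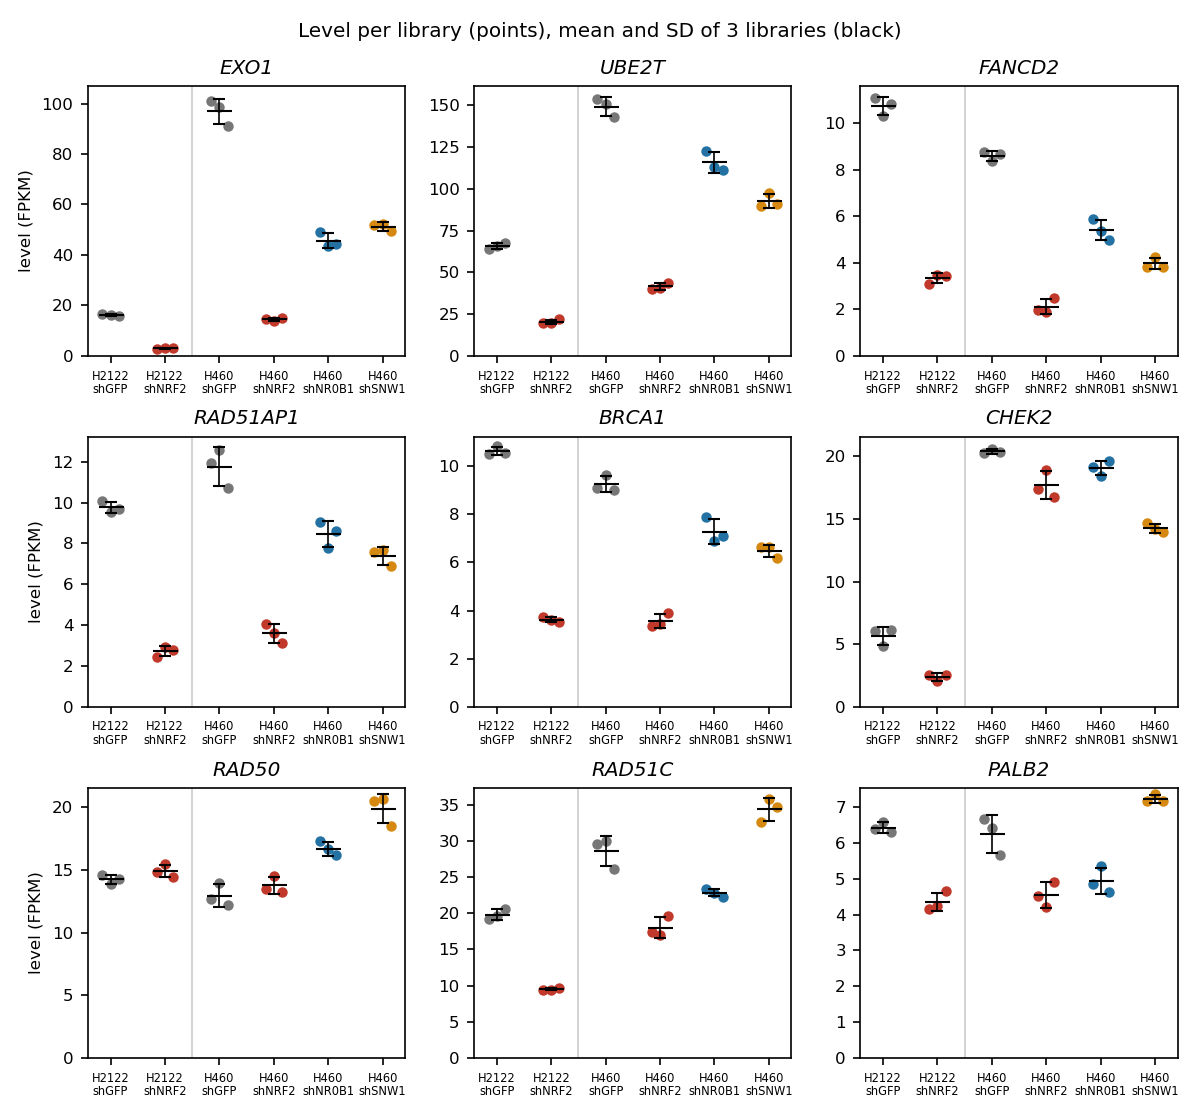
Level in FPKM (vertical axes, from 0) of 9 of the genes in each knockdown library (points) with the mean and SD of 3 libraries (black). EXO1, UBE2T, FANCD2, RAD51AP1 and BRCA1 are lowest with shNRF2 in each line, whereas RAD50, RAD51C and PALB2 are highest with shSNW1.

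A list of 20 S phase and proliferation genes (such as MKI67, PCNA and the MCM helicase subunits) was read beside the members. It was chosen with earlier results of these data known. Its summed level was 1184 to 1223 FPKM in H2122 shGFP and 381 to 405 FPKM in H2122 shNRF2 libraries, and 1253 to 1273 FPKM in H460 shGFP and 465 to 487 FPKM in H460 shNRF2 libraries. All 20 fell in both NRF2 knockdowns, with medians of -1.63 and -1.62 on the log2 scale. In shNR0B1 the sum was 820 to 907 FPKM, with 17 of the genes lower and 1 higher. In shSNW1 it was 859 to 899 FPKM, with 18 lower and 2 higher. Its part in the members' change was not tested.

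The 2 NRF2 knockdowns differed in how far single members moved, and the interaction term (effect in H2122 minus effect in H460) tested this directly. It was called for 20 of 37 members, 12 with the higher effect in H2122 and 8 with the lower, against 37.4% and 34.3% of 12798 genes. The members' median difference was 0.00, and 54.1% of members were called against 71.6% of all genes. Without the third H460 shGFP library, 12 were higher and 7 lower.

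CHEK2 had the most negative difference. It went from 6.07, 4.85 and 6.14 FPKM to 2.57, 2.06 and 2.57 FPKM in H2122, but from 20.2, 20.6 and 20.3 FPKM to 17.4, 18.9 and 16.8 FPKM in H460. The groups did not overlap in either line, and the effects of -0.97 and -0.20 differed by -0.78 (SE 0.11, limma adjusted p = 3.96e-05). XRCC3, ATR and RAD51C also fell further in H2122, with differences of -0.49, -0.39 and -0.35. RAD51D, a partner of XRCC2, rose in H460 from 4.75, 4.95 and 4.53 FPKM to 5.96, 5.85 and 6.21 FPKM (0.29, adjusted p = 0.00103). In H2122 it did not pass the test, with 4.36, 3.42 and 3.47 FPKM against 3.28, 3.27 and 3.24 FPKM (-0.15, limma adjusted p = 0.0863). The difference of -0.44 did pass (limma adjusted p = 0.000921). The RAD51D fall in H2122 was called with the median ratio of tested genes set to 0, or without H2122 shGFP replicate 2. Its rise in H460 held in every other setting in which it was tested.

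RAD51B, a partner of RAD51C, had the most positive difference. It was at 1.17, 1.15 and 1.20 FPKM in H2122 shGFP and 1.18, 1.08 and 1.20 FPKM in H2122 shNRF2 libraries, which overlapped. In H460 it went from 2.73, 2.11 and 2.36 FPKM to 1.15, 1.1 and 1.14 FPKM, with no overlap, and the difference was 0.66 (SE 0.09, adjusted p = 1.54e-05). MRE11A (0.54), NBN (0.53), FANCE (0.51) and FANCL, the ubiquitin ligase of the core (0.51), likewise fell further in H460. The EXO1 difference was 0.53, with mean FPKM 5.54-fold lower in H2122 and 6.70-fold lower in H460; it was 0.30 at a pseudocount of 0.1 FPKM and 0.27 by limma-voom on recovered reads (adjusted p = 0.0101). The RAD51B difference was 0.99 and 1.06 under the same settings. The FANCB difference of 0.45 depended on the added 1 FPKM: it became -0.10 by limma-voom on recovered reads (adjusted p = 0.763), and its mean FPKM fell 3.46-fold in H2122 and 3.15-fold in H460. The call of the UBE2T difference of 0.17 (limma adjusted p = 0.0357) was lost under 13 of the 21 other settings (adjusted p = 0.0804 by limma-voom). BRCA1, BARD1, PALB2 and BRCA2 had differences of -0.16 to -0.09, none called in the main analysis. The BRCA1 difference was called by limma-voom, with the median ratio of tested genes set to 0 and with no mean-variance trend. It was also called without H460 shGFP replicate 2, H460 shNRF2 replicate 1 or H460 shNRF2 replicate 2. The differences of FANCD2, FANCI, FANCG, RAD54B and RAD54L were called only under some other settings.

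**Figure D3:**
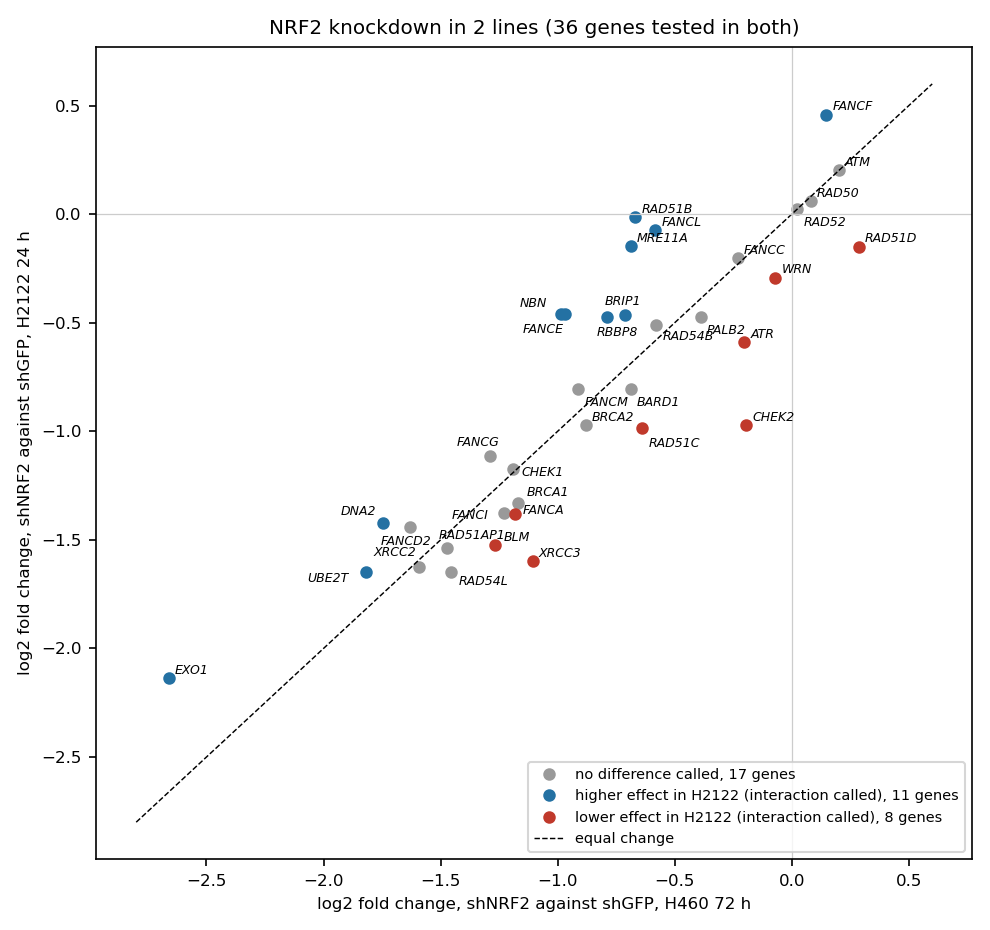
Log2 fold change of NRF2 knockdown in H460 (horizontal axis) and H2122 (vertical axis) for the 36 genes tested in both lines, on the log2(FPKM + 1) scale. Points on the dashed line changed equally; CHEK2 lies furthest below it (difference -0.78) and RAD51B furthest above it (0.66).

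NR0B1 depletion in H460 lowered 27 of 37 members and raised 3, where 36.8% of 11938 genes fell and 33.1% rose. The median was -0.34 (all genes -0.02), and 8 members fell by at least 1.5 fold against 7.15% of all genes. The comparison shares its shGFP libraries with those of NRF2 and SNW1 in H460, and without the third of them 29 fell, 7 by at least 1.5 fold, and 2 rose. EXO1 again fell furthest, to 49.2, 43.4 and 44.4 FPKM (log2 fold change -1.07, SE 0.05, limma adjusted p = 7.51e-10). CHEK1 fell to 7.19, 7.19 and 6.86 FPKM (-0.72, adjusted p = 1.79e-07) and XRCC2 to 4.35, 4.32 and 4.03 FPKM (-0.66, adjusted p = 1.67e-05). All libraries of these 3 genes lay below the shGFP values given above.

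FANCE, which couples the core to FANCD2, went from 4.19, 3.95 and 4.85 FPKM to 2.32, 2.24 and 2.78 FPKM (-0.63), and RAD54L fell by 0.60. FANCM, FANCB and FANCD2 each fell by 0.59, and NBN by 0.56. In the BRCA1 and BRCA2 assembly BRCA1 fell by 0.31, BRCA2 by 0.36, PALB2 by 0.29 and BARD1 by 0.17, the last lost under 6 of the other settings (adjusted p = 0.199 with a common library total). RAD50 rose to 17.3, 16.6 and 16.2 FPKM from 12.7, 14.0 and 12.2 FPKM, without overlap (0.34, adjusted p = 9.13e-05). FANCF rose by 0.15 (adjusted p = 0.0138) and RAD51D by 0.18 (adjusted p = 0.0212), and each call was lost when single libraries were left out (adjusted p = 0.0713 for FANCF without shGFP replicate 2, and 0.0966 for RAD51D without shNR0B1 replicate 1). RBBP8, WRN, ATM, CHEK2, RAD51B, FANCC and BRIP1 did not pass the test, with differences of -0.13 to 0.09. Of these, RBBP8, WRN and BRIP1 were called by limma-voom and also without the third shGFP library. ATM was called with a common library total, and RAD51B without shGFP replicate 2.

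SNW1 depletion also lowered 27 of 37 members and raised 3, where 36.4% of genes fell and 30.8% rose, with a median of -0.38 (all genes -0.03). Without the third shGFP library the counts were 27 and 2, and with a common library total 23 and 5, a scaling that moved the share of higher calls over all genes from 45.8% to 56.5%. A fall of at least 1.5 fold was called for 10 members, also without that library, against 6.88% of genes. FANCD2 fell furthest, to 3.81, 4.27 and 3.83 FPKM from 8.76, 8.36 and 8.67 FPKM (log2 fold change -0.95, SE 0.07, limma adjusted p = 7.98e-08). EXO1 fell to 52.0, 52.4 and 49.3 FPKM (-0.91) and XRCC2 to 3.87, 3.03 and 3.52 FPKM (-0.89). The shSNW1 libraries of all 3 were below every shGFP library. DNA2 (-0.87), RAD54L (-0.79), FANCG (-0.75), UBE2T (-0.68) and FANCA (-0.67) followed.

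With shSNW1, RAD50 rose to 20.5, 20.7 and 18.5 FPKM (0.58, adjusted p = 7.09e-07) and RAD51C, which had fallen with shNRF2 and shNR0B1, rose from 29.6, 30.1 and 26.2 FPKM to 32.6, 35.8 and 34.7 FPKM (0.26, adjusted p = 0.00175). PALB2 went from 6.68, 6.41 and 5.67 FPKM to 7.17, 7.37 and 7.16 FPKM (0.18, adjusted p = 0.0207). All 3 genes had every shSNW1 library above every shGFP library. The PALB2 call was lost without the third shGFP library (adjusted p = 0.0943) or without shSNW1 replicate 2 (adjusted p = 0.0585). ATM, which rose with shNRF2, fell with shSNW1 to 2.98, 2.80 and 2.70 FPKM (-0.27, adjusted p = 0.0019). The calls for NBN (-0.13) and MRE11A (-0.18) were lost under 9 and 6 of 16 other settings. Those for RAD51B (-0.18) and FANCC (-0.15) were lost under 6 and 5 of 15. The NBN and RAD51B libraries overlapped those of shGFP.

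Direct tests between the 3 H460 knockdowns placed shNRF2 below both others. Against shNR0B1, 30 members were lower and 1 higher (background 36.7% and 37.8%), with a median difference of -0.47. Against shSNW1, 29 were lower and 4 higher (39.1% and 39.6%), with a median of -0.54. A common library total moved the median of all genes from 0.01 to -0.09 and from 0.01 to -0.10 in these comparisons, and the share of higher calls from 50.7% to 39.2% in the first. EXO1 was lower with shNRF2 by 1.59 against shNR0B1 and by 1.76 against shSNW1, and UBE2T by 1.46 and 1.14. RAD52 was the member higher than with shNR0B1 (0.26), and ATM (0.47), CHEK2 (0.29), RAD51D (0.15) and FANCF (0.12) were higher than with shSNW1. The calls of RAD51D and FANCF against shSNW1 were lost under 9 and 11 of the 16 other settings (adjusted p up to 0.469 and 0.840).

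Between shNR0B1 and shSNW1, 14 members were higher and 12 lower with shNR0B1, close to the 34.7% and 33.1% of all genes. FANCG went from 8.83, 9.09 and 8.83 FPKM in shSNW1 to 12.4, 11.9 and 12.4 FPKM in shNR0B1 (difference 0.42, SE 0.05, limma adjusted p = 1e-05). CHEK2 was higher with shNR0B1 by 0.39, DNA2 and FANCD2 by 0.37, ATM by 0.36, BRIP1 by 0.33 and UBE2T by 0.32. In the opposite direction RAD51C differed by -0.57, FANCE by -0.49, PALB2 by -0.47 and NBN by -0.43. FANCD2, FANCI and BRIP1, downstream of the core, were all higher with shNR0B1, where 34.7% of all genes were higher. Of the 8 break sensing and resection genes, 5 were lower, where 33.1% of all genes were lower. A difference between roles was not tested. Of the 5 lower resection genes, the calls of EXO1, MRE11A and WRN were lost under 1, 3 and 6 of the 16 other settings (limma adjusted p up to 0.0567, 0.0631 and 0.173). The calls held in every other setting for 9 of the 14 higher and 8 of the 12 lower members. Those of BRCA1 and FANCF were each lost in 7 of the 16 other settings, XRCC2 in 5, and FANCL, RAD54L and CHEK1 each in 2. FANCB differed by 0.00 (95% interval -0.15 to 0.15), BRCA2 by -0.06 (-0.19 to 0.08) and XRCC3 by -0.06 (-0.22 to 0.09).

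**Figure D4:**
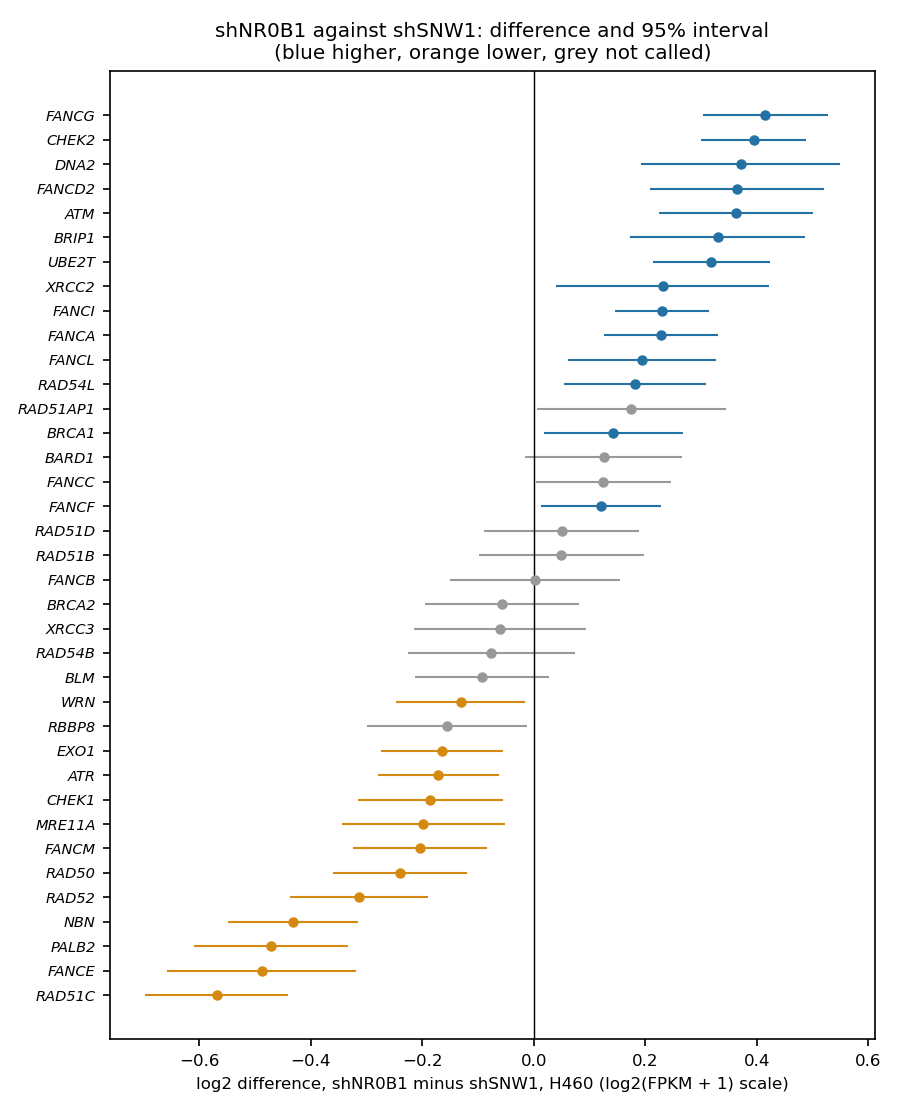
Difference between shNR0B1 and shSNW1 in H460 for each of the 37 genes (points) with its 95% interval (lines), on the log2(FPKM + 1) scale. The 14 genes in blue were higher with shNR0B1, led by FANCG (0.42), and the 12 in orange lower, led by RAD51C (-0.57).

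The compounds were compared at the same dose and time, in 3 pairwise comparisons of the 9 libraries. Both are known here by code name only. Because gene lengths behind the deposited compound columns differ from those of the knockdown columns, levels are given as RPM, the recovered reads scaled to library depth without gene length, and read only as ratios within a gene. With BPK29, 21 of 37 members fell and 2 rose relative to DMSO, where 29.3% of 11461 genes fell and 21.1% rose. The changes were small, with a median of -0.16 (all genes -0.02), and FANCD2 was the 1 member that fell by at least 1.5 fold (1.53% of genes). With a common library total, 17 fell and 2 rose, and the share of higher calls over all genes moved from 41.9% to 61.2%.

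FANCD2 went from 68.6, 72.9 and 70.6 RPM with DMSO to 43.8, 42.5 and 42.3 RPM with BPK29, a ratio of means 1.65-fold lower (log2 fold change -0.71, SE 0.03, limma adjusted p = 2.72e-07). RAD51AP1 went from 34.8, 36.4 and 37.1 RPM to 25.4, 27.2 and 26.2 RPM (-0.41, adjusted p = 3.24e-05). RAD51C went from 52.3, 49.8 and 50.2 RPM to 39.4, 40.2 and 36.9 RPM (-0.37, adjusted p = 3.65e-05). In each of these genes the BPK29 and DMSO libraries were well apart. NBN and FANCI each fell by 0.35, UBE2T by 0.33 and FANCC by 0.30. RAD50, which rose with shNR0B1 and shSNW1, fell here from 130, 128 and 125 RPM to 110, 106 and 110 RPM (-0.23, adjusted p = 8.1e-05).

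EXO1, the member that fell furthest in both NRF2 knockdowns, changed by -0.24 with BPK29. BRCA1 changed by -0.16, while BRCA2 (-0.14, 95% interval -0.26 to -0.01, adjusted p = 0.0636) did not pass. FANCL rose from 45.4 ± 1.90 to 51.2 ± 1.44 RPM (SD, n = 3; 0.15, adjusted p = 0.00984), and RBBP8 rose by 0.12 (adjusted p = 0.0149), a call lost without BPK29 replicate 2 (adjusted p = 0.059) or DMSO replicate 1 (adjusted p = 0.0534). Of the 21 members that fell with BPK29, 20 had fallen in both NRF2 knockdowns, which is 20 of the 28 that fell in both; RAD50 was the exception. Over all genes tested in the 3 comparisons, 13.2% fell in each of them, which is 44.9% of those that fell with BPK29 and 43.7% of those that fell in both NRF2 knockdowns. The BPK29 calls of CHEK1, FANCE, BRIP1 and XRCC2, which are among the 20, were lost under 7, 6, 2 and 1 of the 16 other settings. The limma adjusted p reached 0.199 for CHEK1 and 0.169 for FANCE. The S phase and proliferation list moved here too, with 17 of 20 genes lower and a median of -0.21, and its part was not tested.

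With BPK9, no member was called by limma (0.00873% of genes fell and 0.0% rose). At an unadjusted limma p under 0.05 there were 7 of 37 members, against 1725 of 11461 genes. Limma-voom on recovered reads called 1 member, FANCD2, as lower, against 134 of 11459 genes. FANCD2 had 65.0, 62.4 and 64.7 RPM with BPK9, below all 3 DMSO libraries (log2 difference -0.14, 95% interval -0.21 to -0.07, limma adjusted p = 0.123). The other members differed from DMSO by -0.11 to 0.07. Among them, EXO1, NBN, FANCG and BARD1 also had every BPK9 library below every DMSO library, and no member had every one above. The share of all genes separated in this way is not given here, so no result is drawn from it. A p that misses the threshold does not show that BPK9 and DMSO act alike. UBE2T, for example, had a difference of -0.02 with an interval of -0.09 to 0.05.

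Set directly against BPK9, BPK29 gave 21 members lower and 2 higher, where 27.2% of genes were lower and 19.7% higher, and a median of -0.12. Only 13 of the 21 lower calls held in every other setting. Of the 16 other settings, the calls of BARD1 and RAD54L were each lost in 10 and those of BRCA2 and XRCC2 in 9. Those of CHEK1, DNA2 and FANCM were each lost in 6, and that of FANCE in 4. With single libraries left out, 14 to 19 members were lower. With a common library total the counts were 13 and 3, and the share of higher calls over all genes moved from 42.0% to 59.1%. FANCD2 differed by -0.57 (95% interval -0.63 to -0.50, limma adjusted p = 1.22e-06), RAD51C by -0.41 (-0.49 to -0.32), RAD51AP1 by -0.38 (-0.47 to -0.29) and FANCI by -0.33 (-0.38 to -0.28). FANCL (0.13, 0.04 to 0.22) and RBBP8 (0.14, 0.06 to 0.21) were higher with BPK29, but the FANCL call was lost without BPK29 replicate 2, BPK29 replicate 3 or BPK9 replicate 1 (adjusted p up to 0.0835). BLM (0.00, -0.08 to 0.08), ATR (-0.02, -0.09 to 0.05) and PALB2 (-0.02, -0.11 to 0.07) showed no difference that passed the test. These comparisons share the BPK29 libraries, so the 2 counts of 21 do not stand apart from each other.

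**Figure D5:**
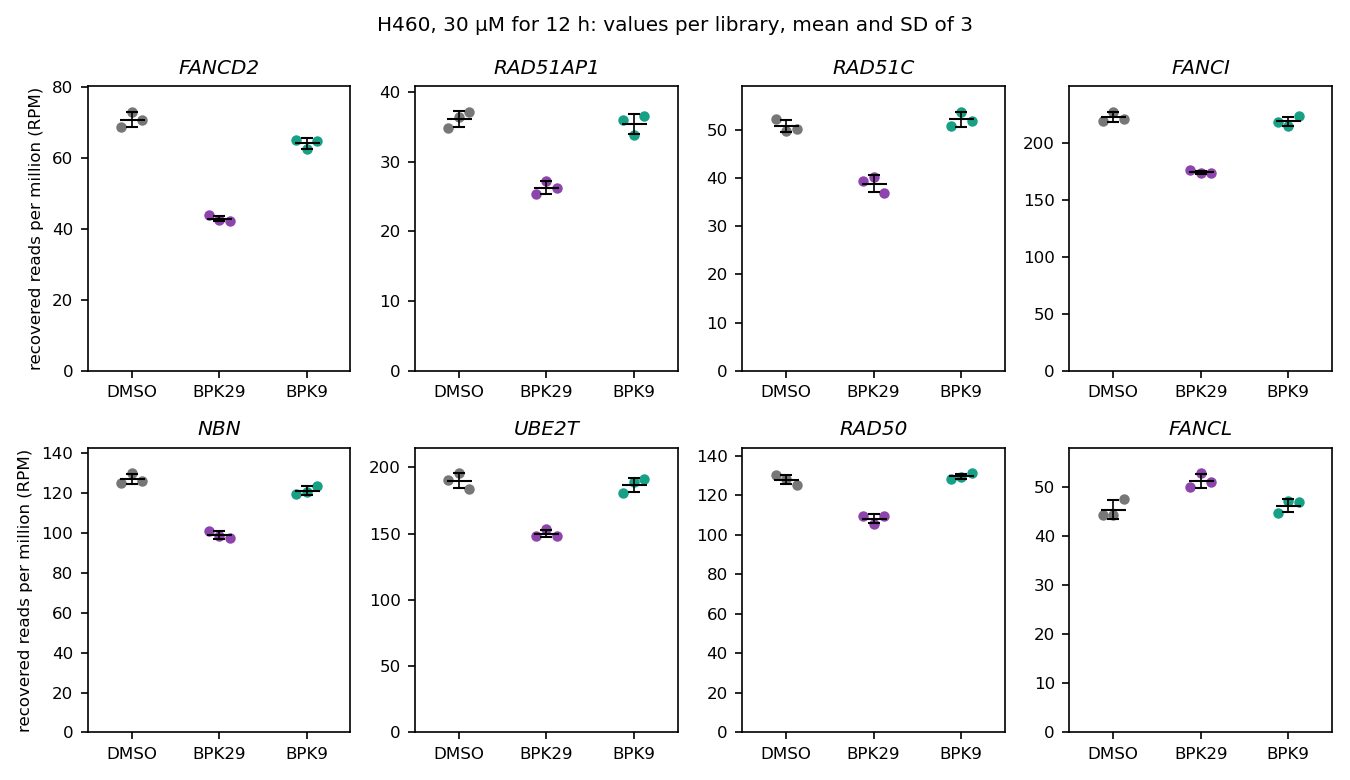
RPM, recovered reads scaled to depth (vertical axes, from 0), of 8 of the genes in H460 libraries treated with DMSO, BPK29 or BPK9 (30 µM, 12 h), as points with the mean and SD of 3 libraries. FANCD2 lies at 42.3 to 43.8 RPM with BPK29, below the DMSO and BPK9 libraries, and FANCL is higher with BPK29.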

How the data were processed

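Polyadenylated RNA of 27 samples (9 groups of 3) was sequenced, prepared with a kit that does not mark strand, so antisense or overlapping transcripts cannot be told apart. The authors deposited one table in FPKM; the tools HOMER, Bowtie2, DESeq2, featureCounts and STAR and the build hg19 are named, per the submitters' processing notes, while roles, versions and filters were not given in the sources used here. Whole reads were recovered from the steps of the FPKM values (tolerance 0.02 reads) for 17871 of 17871 genes in the knockdown columns and 16209 of 16211 in the compound columns. The deposited scaling follows median-ratio factors (within 1.03% in the compound columns), and 28 symbols hold no compound value. Comparisons used limma 3.58.1 in R 4.3.3 on log2(FPKM + 1), with the prior variance following mean level, for genes at 1 FPKM or more in at least 3 fitted libraries, with Benjamini-Hochberg adjustment over all genes tested. One fit held the 12 H460 knockdown libraries, another the 6 of H2122, another the 9 of the compounds, and the interaction used the 12 shGFP and shNRF2 libraries of both lines. Alternatives were pseudocounts of 0.1 and 0.5, no filter or 5 FPKM, a common total of reads, median centring, limma-voom on recovered reads, no trend, only the compared groups, the replicate number as a block, and each library left out. Values per library are given for up to 6 called members with the largest fall and up to 4 with the largest rise in each knockdown comparison and the interaction, up to 4 per role and up to 6 per compound comparison. The members and lists were chosen with earlier results of these data known. The chromatin immunoprecipitation samples were not used here.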

Additional observations from a re-analysis of the deposited data

Results flagged for a closer look

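The interaction test of NRF2 knockdown between H2122 (24 h) and H460 (72 h) called 20 of the 37 genes (54.1%), against 71.6% of 12798 genes. Line and time cannot be told apart in them. The effect in H2122 was lower by the log2 differences -0.78 for CHEK2, -0.49 for XRCC3, -0.44 for RAD51D, -0.39 for ATR, -0.35 for RAD51C, -0.26 for BLM, -0.22 for WRN and -0.20 for FANCA. It was higher by 0.17 for UBE2T, 0.25 for BRIP1, 0.31 for FANCF, 0.31 for RBBP8, 0.32 for DNA2, 0.45 for FANCB, 0.51 for FANCE, 0.51 for FANCL, 0.53 for EXO1, 0.53 for NBN, 0.54 for MRE11A and 0.66 for RAD51B. The calls of 6 lower and 9 higher genes held under every alternative in which they were tested. The UBE2T call was lost under 13 of 21 alternatives, BRIP1 under 10 of 20, FANCA and WRN each under 8 of 21, and FANCB under 2 of 20. Under limma-voom on recovered reads the difference was 0.27 for EXO1, 1.06 for RAD51B, 0.77 for FANCE, 0.51 for BRIP1, -0.32 for FANCA and -0.10 for FANCB. Single genes were checked for a lone high or low library within groups of 3 only through the fits with each library left out.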

How the results depend on the processing

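Over all alternatives, 342 of the counts of members called stayed within 1.5 times the main count and 18 moved further. Of the single-gene values, 6249 kept direction and side of the threshold, 233 lost the call, 75 gained it and 1 reversed: the FANCB interaction, 0.45 in the main analysis and -0.10 by limma-voom. The moved counts were of few genes, except where stated. Members called higher went from 2 to 1 at 5 FPKM for shNRF2 in H2122 (25 tested), from 3 to 5 with a common total for shSNW1, from 1 to 2 by limma-voom for shNRF2 against shNR0B1, and from 4 to 2 for shNRF2 against shSNW1 with no filter, at 5 FPKM, with a common total and with median centring, and to between 2 and 3 with single libraries left out. Members called lower went from 0 to 1 by limma-voom for BPK9 and from 21 to 13 with a common total for BPK29 against BPK9. With single libraries left out, members higher with BPK29 ranged from 1 to 3 against DMSO and from 1 to 3 against BPK9; members lower ranged from 27 to 29 and 31 to 31 for shNRF2 in H2122 and H460, 26 to 29 for shNR0B1, 23 to 27 for shSNW1, 18 to 21 for BPK29 and 14 to 19 for BPK29 against BPK9. The calls of 28 of 29, 31 of 31, 26 of 27, 23 of 27, 17 of 21 and 13 of 21 of these members held in every alternative in which they were tested. The cause of these changes was not tested. Where a left-out library leaves 2 in a group, that group is assumed to vary like the others. Fitting only the compared groups was not run for shNRF2 in H2122 and the interaction, whose fits hold no other groups. Replicate numbers were not taken as pairs, because not every same-number correlation was above 0.1: these were 0.07 to 0.21 in H2122 (other numbers -0.19 to -0.003), -0.31 to 0.28 in H460 (-0.30 to 0.44) and -0.02 to 0.20 with compounds (-0.14 to 0.04). With the replicate number as a block, members lower were 29 and 31 for shNRF2, 28 for shNR0B1, 27 for shSNW1, 21 for BPK29, and 19 for BPK29 against BPK9; the BRIP1 interaction call was lost (adjusted p = 0.0546). FANCB is limited by depth, with as few as 16 reads in a library.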

Other observations

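Other repair genes were read in the same fits. With shNRF2, 38 of 57 other recombination and Fanconi genes fell and 11 rose in H2122 (median -0.39), and 41 of 58 fell and 9 rose in H460 (median -0.37). RMI2, a subunit of the complex that dissolves joint molecules with BLM, fell by 1.68 and 2.52, and TP53BP1, which restrains end resection, rose by 0.83 and 0.41.

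Of 11 end joining genes, 6 fell and 5 rose with shNRF2 in H2122 (median -0.19), and 6 fell and 3 rose in H460 (-0.21). PRKDC, the DNA-dependent protein kinase, fell by 0.89 and 0.58, and POLM, a gap-filling polymerase, rose by 0.73 and 0.19. Of 27 mismatch and excision repair genes, 18 fell and 7 rose in H2122 (-0.46), and 18 fell and 3 rose in H460 (-0.42). The share of each list that fell is to be read beside 38.5% and 39.0% of all genes.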
